A study of Rattus norvegicus with 12 samples.

Results

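The 9 mature miRNAs of the miR-17/92 and miR-106b/25 clusters were followed in the extracellular vesicles (EVs) of cultured rat cells. The members were taken by name from the array, 9 of its 727 miRNA probes, whatever their intensity. Of these, 6 belonged to miR-17/92 (miR-17-5p, miR-18a-5p, miR-19a-3p, miR-20a-5p, miR-19b-3p and miR-92a-3p) and 3 to miR-106b/25 (miR-106b-5p, miR-93-5p and miR-25-3p). EV RNA of 4 sources was hybridised to 12 one-colour arrays, 3 per source. Thy1-MC-EVs came from mesenchymal cells (MCs) grown from Thy1+ cells of rat livers injured with d-galactosamine, after epithelial colonies had been detached from the dish. The labels call these cells liver stem cells, and the study's account of the experiment was used to name them. SH-EVs came from small hepatocytes, the hepatocytic progenitors of healthy adult rat liver, and MH-EVs from mature hepatocytes of the same kind of liver. MSC-EVs came from bone marrow mesenchymal cells whose donor rats are not described in the sources used here. Per the labels, Thy1+ cells and MSCs grew on plastic, SHs on hyaluronic acid and MHs on type I collagen, so that source, injury and substrate cannot be told apart. The methods give collagen-coated dishes for Thy1+ cells. All sources were kept for 2 days in medium without serum before EVs were collected by filtration and ultracentrifugation.

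miR-17/92 and miR-106b/25 are paralogous clusters, each transcribed as 1 precursor that is cut into several hairpins. They are direct targets of MYC and E2F, and their products are known to hold back cell cycle inhibitors such as Cdkn1a and the proapoptotic factor Bim. A mature miRNA finds its targets mainly through its seed, bases 2 to 8 from the 5′ end, and members with 1 seed share most predicted targets. In the liver, both clusters are best known for their higher expression in proliferating and tumour cells than in resting hepatocytes.

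The mature sequences are printed because the members fall into 4 seed families that cut across the clusters, and because close members differ by so few bases that a hybridisation array may not keep them apart. All 9 matched RefSeq entries of the rat assembly GRCr8. Capitals mark the seed.

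The seed AAAGUGC was shared by 4 members, with miR-17-5p and miR-20a-5p from miR-17/92 and miR-106b-5p and miR-93-5p from miR-106b/25.
rno-miR-17-5p: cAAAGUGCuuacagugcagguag
rno-miR-20a-5p: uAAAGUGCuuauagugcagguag
rno-miR-106b-5p: uAAAGUGCugacagugcagau
rno-miR-93-5p: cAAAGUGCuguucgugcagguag

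The seed of miR-18a-5p occurred in no other member.
rno-miR-18a-5p: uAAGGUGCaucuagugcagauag

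The seed GUGCAAA was shared by both miR-19 members, each from miR-17/92.
rno-miR-19a-3p: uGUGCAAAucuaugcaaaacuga
rno-miR-19b-3p: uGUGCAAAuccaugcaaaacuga

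The seed AUUGCAC was shared by 1 member of each cluster.
rno-miR-92a-3p: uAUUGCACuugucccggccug
rno-miR-25-3p: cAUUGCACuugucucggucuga

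Counting from 1 at the 5′ end, miR-19a-3p and miR-19b-3p differed only by U11C, and miR-17-5p and miR-20a-5p by C1U and C12U. miR-92a-3p and miR-25-3p differed at 3 of the 21 bases compared, U1C, C14U and C18U. The 6 hairpins of miR-17/92 lay at chr15:98587848-98588632 on the plus strand, within no gene of the RefSeq table. The 3 hairpins of miR-106b/25 lay at chr12:22156641-22157134 on the minus strand, inside Mcm7, a gene of the replicative helicase on the same strand. miR-17-5p, miR-19b-3p and miR-92a-3p each had a second locus with the identical mature sequence on chromosome X, in a paralogous cluster at chrX:137342777-137343647. Signal from these copies cannot be told apart, and whether the probes separate members that differ by 1 to 3 bases is not given in the sources used here.

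Levels are normalized log2 intensities: raw signals corrected for the blank spots, brought to a common distribution over the 12 arrays and put on the log2 scale, so that 1 unit is a doubling and a level is relative to the other miRNAs of the array. A probe was detected when its raw signal exceeded the mean of the blank spots by 2 SD, which held for 174 to 359 probes on the Thy1-MC-EV, MSC-EV and SH-EV arrays and 425 to 528 on the MH-EV arrays. Between 44.4% and 76.7% of the spots that carry no probe also passed this limit, so a detected level near it is weak evidence of the miRNA. The first spike-in spot read 5139 to 7915 on MH-EV arrays and 28678 to 32905 on all others. With the arrays set to equal spike-in signal, the median log2 difference from MH-EVs over all tested probes was -2.23 for Thy1-MC-EVs, -2.24 for SH-EVs and -2.61 for MSC-EVs, whereas under the common distribution it was -0.05, -0.06 and -0.12. The blank spots also read lower on MH-EV arrays, with means of 59.8 to 77.9 against 96.8 to 135.9 on all others. Comparisons with MH-EVs therefore describe a member's place among the miRNAs of the vesicles, and in bulk EV RNA fewer vesicles and less RNA per vesicle cannot be told apart. Nor can a difference between the arrays themselves be told apart from the source.

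The members were measured with unequal reach. All of miR-17-5p, miR-20a-5p, miR-19b-3p, miR-92a-3p, miR-106b-5p, miR-93-5p and miR-25-3p were detected on the 12 arrays. Detection of miR-19a-3p was partial, with 1 of 3 arrays for Thy1-MC-EVs, 2 of 3 for MSC-EVs and all 3 for both SH-EVs and MH-EVs. miR-18a-5p passed the limit on no Thy1-MC-EV array, 1 MSC-EV array, 1 SH-EV array and 2 MH-EV arrays, and on none of the 12 did it exceed the 95th percentile of the spots without a probe. It passed the detection filter in no group and was not tested. Its raw signal was 70.0 to 88.2 on MH-EV arrays, where the detection limit was 64.7 to 84.9. Of the others, miR-93-5p was close to its floor in Thy1-MC-EVs, where it exceeded the 95th percentile of the spots without a probe on 1 of 3 arrays.

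**Figure D1:**
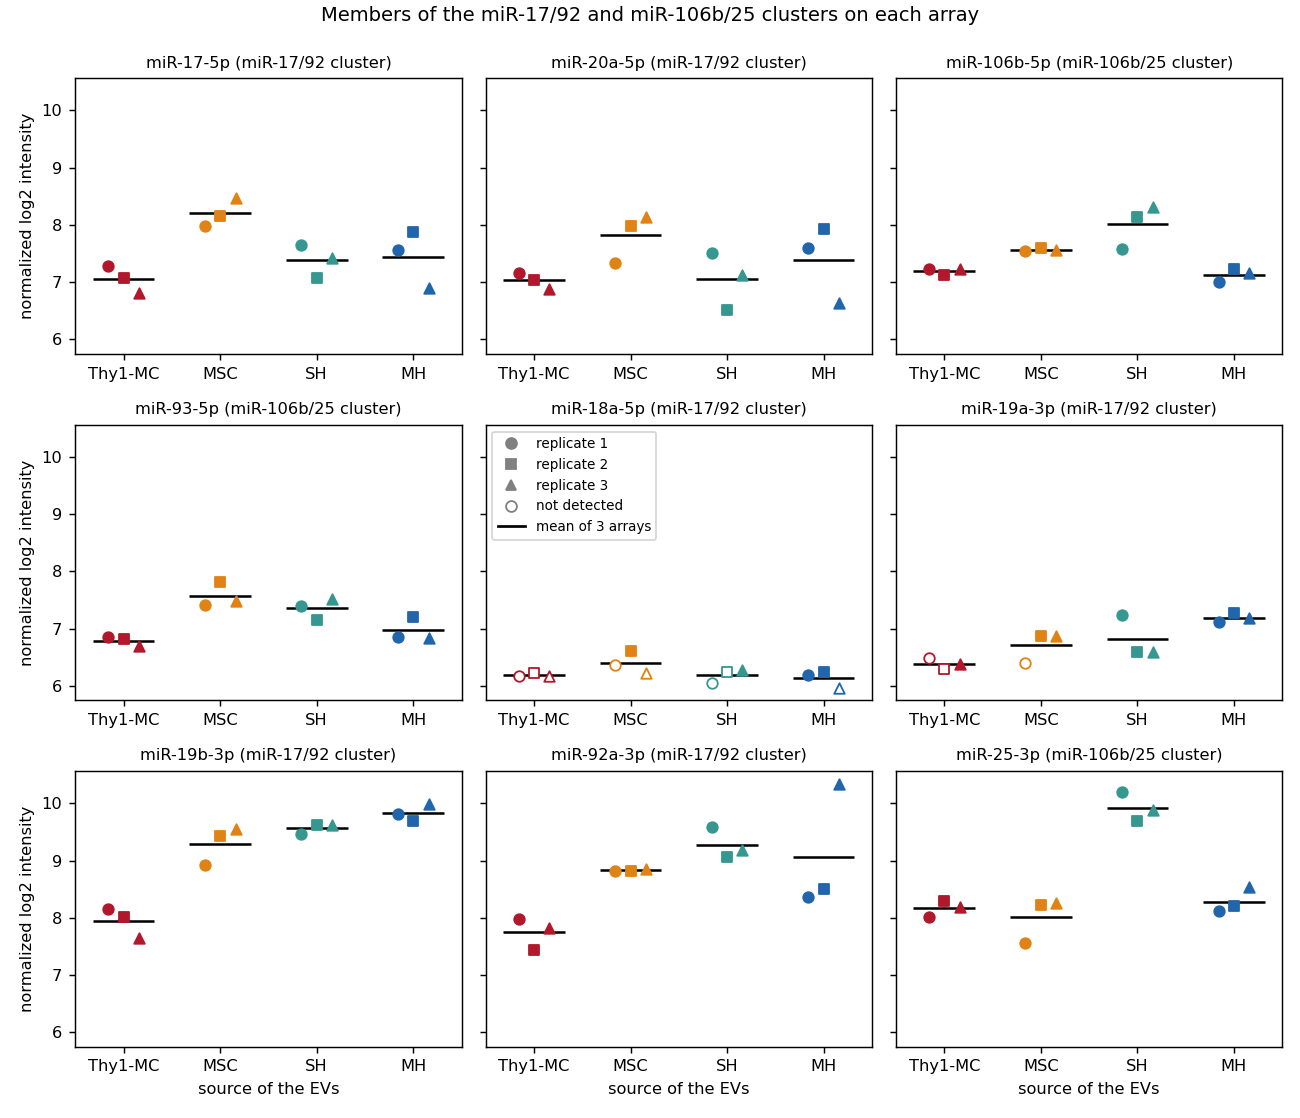
Normalized log2 intensity of each member (vertical axis) on the 3 arrays of each EV source (horizontal axis). Points are arrays, with the replicate shown by shape and open points below the detection limit, and lines are means of 3 arrays. miR-25-3p stood at 9.69 to 10.20 on the SH-EV arrays and at 7.57 to 8.53 elsewhere (MH-EVs lie above SH-EVs with spike-in scaling), and the MH-EV array of replicate 3 stood apart for miR-92a-3p, miR-17-5p and miR-20a-5p.

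On the common distribution, Thy1-MC-EVs against SH-EVs gave the most calls of the 6 comparisons. With spike-in scaling and on the authors' normalized intensity, the comparisons with MH-EVs gave more. Of the 8 members tested, 5 were lower in Thy1-MC-EVs and 0 were higher (limma, adjusted p under 0.05 over 387 probes), where 7.49% of all tested probes were lower and 6.98% higher. The 5 were miR-25-3p, miR-19b-3p, miR-92a-3p, miR-106b-5p and miR-93-5p, so that all 3 members of miR-106b/25 and 2 of the 5 tested members of miR-17/92 were lower. The median log2 fold change of the 8 was -0.69, against 0.00 for all probes tested. The sources do not say whether the 3 arrays of a group stand for separate cultures or animals, so every p-value measures only the spread between arrays, which may be technical. With spike-in scaling 0 of 8 members passed, the 5 keeping their sign, and the methods' t-test gave 2 calls in place of 5. Median scaling gave 2, and plain subtraction, 75th percentile scaling and the authors' normalized intensity 3 each. Calls over all 387 probes fell as well, from 29 lower and 27 higher. Spike-in scaling gave 1 lower and 4 higher, and the methods' t-test 7 lower and 10 higher. Median scaling gave 8 lower and 16 higher, plain subtraction 13 and 19, 75th percentile scaling 14 and 8 and the authors' normalized intensity 21 and 18. The call of miR-92a-3p was lost on leaving out any 1 array, and that of miR-93-5p on leaving out any but SH-EV replicate 2.

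miR-25-3p, the last hairpin of miR-106b/25 and a known repressor of Bim, was higher in SH-EVs than elsewhere on this scale, although with spike-in scaling MH-EVs lay above. Its level was 10.20, 9.69 and 9.88 on the SH-EV arrays. It was 8.01, 8.30 and 8.19 in Thy1-MC-EVs, 7.57, 8.23 and 8.26 in MSC-EVs and 8.12, 8.21 and 8.53 in MH-EVs. All SH-EV arrays lay above all 9 others, which overlapped with each other. Thy1-MC-EVs held 3.38 times less miR-25-3p than SH-EVs, a log2 fold change of -1.76 (SE 0.21, n = 3 against 3, limma adjusted p = 0.000274), which passed under 14 of 15 other settings and on leaving out any 1 array. SH-EVs exceeded MSC-EVs by 1.90 (SE 0.21, limma adjusted p = 5.46e-05), a call made under all 15 other settings. SH-EVs exceeded MH-EVs by 1.64 (SE 0.21, limma adjusted p = 0.000186), but the sign turned to -1.27 with spike-in scaling and -0.08 on the authors' normalized intensity, where the median of all probes fell too and miR-25-3p lay 0.97 and 1.34 above it. Between the lower sources no difference passed, and the 95% interval of Thy1-MC-EVs against MH-EVs was -0.58 to 0.34.

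miR-92a-3p, the last hairpin of miR-17/92, has the seed of miR-25-3p and is known as a brake on Bim and on endothelial integrins. Its level was 7.97, 7.44 and 7.83 in Thy1-MC-EVs and 9.58, 9.07 and 9.18 in SH-EVs. It was 8.82, 8.82 and 8.85 in MSC-EVs and 8.36, 8.50 and 10.34 in MH-EVs. The Thy1-MC-EV arrays lay below all 9 others, and the MH-EV array of replicate 3 lay above all. Thy1-MC-EVs were lower than SH-EVs by a log2 fold change of -1.53 (SE 0.42, limma adjusted p = 0.0339). The call was lost on leaving out any 1 of the 6 arrays, with fold changes of -1.64 to -1.38 and limma adjusted p of 0.0603 to 0.122, and under 5 of 15 other settings. Against MH-EVs the log2 fold change was -1.32 (SE 0.42, limma adjusted p = 0.0353), and no scaling turned its sign. It was lost without replicate 1, 2 or 3 of Thy1-MC-EVs (limma adjusted p = 0.0604, 0.124 and 0.0722), while without the MH-EV array of replicate 3 it shrank to -0.68 and still passed. It was also lost with all probes tested, with only the 6 arrays of both groups and with the methods' t-test. That array also set the comparison of SH-EVs with MH-EVs, 0.21 (limma adjusted p = 0.747) with it and 0.85 (limma adjusted p = 0.00598) without it.

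The difference between the members with this seed varied with the source. Within an array, miR-92a-3p minus miR-25-3p was -0.62, -0.62 and -0.70 in SH-EVs and -0.04, -0.86 and -0.36 in Thy1-MC-EVs. It was 1.26, 0.60 and 0.59 in MSC-EVs and 0.24, 0.29 and 1.81 in MH-EVs. The difference was thus below 0 on all 6 Thy1-MC-EV and SH-EV arrays and above 0 on all 6 MSC-EV and MH-EV arrays. The same split of arrays was found on the values before the arrays were brought to a common distribution. Intensities of different probes are not on 1 scale, so the values show only how the difference varied between sources, and no test was made.

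miR-19b-3p, which with miR-19a-3p is known as the main oncogenic part of miR-17/92 in mouse lymphoma, set Thy1-MC-EVs apart from all other sources. Its level was 8.15, 8.02 and 7.65 in Thy1-MC-EVs. It was 8.91, 9.42 and 9.54 in MSC-EVs, 9.46, 9.62 and 9.62 in SH-EVs and 9.82, 9.69 and 9.99 in MH-EVs. All 3 Thy1-MC-EV arrays lay below all 9 others, and the MH-EV arrays lay above all. The log2 fold change in Thy1-MC-EVs was -1.63 against SH-EVs (SE 0.18, limma adjusted p = 0.000256), lost only with spike-in scaling. It was -1.89 against MH-EVs (SE 0.18, limma adjusted p = 2.95e-05), a call made under all 15 other settings, with fold changes from -5.03 to -1.74. Against MSC-EVs it was -1.35 (SE 0.18, limma adjusted p = 0.000378), lost with spike-in scaling, on the authors' normalized intensity and with the methods' t-test. None of these 3 calls depended on a single array. MSC-EVs were lower than MH-EVs by 0.54 (SE 0.18, limma adjusted p = 0.0405), but this was lost without MSC-EV replicate 1 (limma adjusted p = 0.135) and without MH-EV replicate 1, 2 or 3 (limma adjusted p = 0.0851, 0.0537 and 0.116). It passed under 5 of 15 other settings and was lost, among others, with the replicate block (limma adjusted p = 0.0565).

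miR-19a-3p, 1 base from miR-19b-3p, was read close to the detection limit. Its level was 6.48, 6.30 and 6.38 in Thy1-MC-EVs, of which only the last was detected. It was 6.41, 6.87 and 6.87 in MSC-EVs, the first below the limit, 7.24, 6.60 and 6.59 in SH-EVs and 7.12, 7.27 and 7.18 in MH-EVs. The Thy1-MC-EV arrays lay below all SH-EV and MH-EV arrays, and SH-EVs reached into the range of MH-EVs. In Thy1-MC-EVs the log2 fold change against MH-EVs was -0.80 (SE 0.19, limma adjusted p = 0.00766), and it shrank to -0.34 with median scaling and -0.22 with 75th percentile scaling, where the call was lost. The probe was tested only because it was detected on all SH-EV and MH-EV arrays, and in Thy1-MC-EVs it exceeded the 95th percentile of the spots without a probe on 0 of 3 arrays, so the size of this difference rests on a level at background. Against SH-EVs it was -0.42, with a 95% interval of -0.84 to -0.01 and a limma adjusted p of 0.163. SH-EVs and MH-EVs differed by -0.38 (limma adjusted p = 0.152), and by -0.59 (limma adjusted p = 0.0152) without SH-EV replicate 1. With all arrays this difference passed under 4 of 15 other settings (cyclic loess, array weights, spike-in scaling and the authors' normalized intensity), and its sign turned to 0.31 with 75th percentile scaling.

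miR-17-5p, the first hairpin of its cluster, with the AAAGUGC seed and a known repressor of Cdkn1a, was highest in MSC-EVs at 7.97, 8.15 and 8.48 on this scale and in MH-EVs with spike-in scaling. It was 7.29, 7.07 and 6.82 in Thy1-MC-EVs, 7.66, 7.07 and 7.43 in SH-EVs and 7.56, 7.87 and 6.89 in MH-EVs. Every MSC-EV array lay above the 9 others, which overlapped. Thy1-MC-EVs were lower than MSC-EVs by a log2 fold change of -1.14 (SE 0.25, limma adjusted p = 0.00791), lost with 75th percentile scaling, spike-in scaling, the authors' normalized intensity and the methods' t-test. SH-EVs were lower than MSC-EVs by -0.82 (SE 0.25, limma adjusted p = 0.0328), lost under 8 of 15 other settings and without SH-EV replicate 2 or 3 (limma adjusted p = 0.129 and 0.0730) or MSC-EV replicate 2 or 3 (limma adjusted p = 0.0631 and 0.113). MSC-EVs exceeded MH-EVs by 0.76 (SE 0.25, limma adjusted p = 0.0366), but the sign turned to -2.48 with spike-in scaling and -1.33 on the authors' normalized intensity. That call was lost without MSC-EV replicate 2 or 3 (limma adjusted p = 0.0633 and 0.123) and without MH-EV replicate 1 or 3 (limma adjusted p = 0.0609 and 0.119), the last with a fold change of 0.49. With its sign kept, it was also lost with plain subtraction, cyclic loess, all probes tested, only the 6 arrays and the methods' t-test. Among the liver sources, Thy1-MC-EVs and SH-EVs differed by -0.32 (95% interval -0.88 to 0.23), and without MH-EV replicate 3 Thy1-MC-EVs were lower than MH-EVs by -0.65 (limma adjusted p = 0.0466), against -0.38 (adjusted p = 0.297) with it.

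miR-20a-5p, encoded beside miR-19a and miR-19b-1 and known as a feedback repressor of E2F factors, passed in no comparison on this scale. Its level was 7.17, 7.04 and 6.89 in Thy1-MC-EVs and 7.51, 6.52 and 7.12 in SH-EVs. It was 7.34, 7.99 and 8.14 in MSC-EVs and 7.59, 7.93 and 6.64 in MH-EVs. Its arrays spread widely within MH-EVs (SD 0.67) and SH-EVs (SD 0.50) and less within Thy1-MC-EVs (SD 0.14). Only Thy1-MC-EVs and MSC-EVs did not overlap. Thy1-MC-EVs and SH-EVs differed by -0.02, with a 95% interval of -0.78 to 0.74. With spike-in scaling and on the authors' normalized intensity, miR-20a-5p passed as lower than MH-EVs in every other source. With array weights SH-EVs were lower than MH-EVs (-0.79, limma adjusted p = 0.0149) and MSC-EVs (-1.01, limma adjusted p = 0.0208). MSC-EVs exceeded MH-EVs by 1.28 with 75th percentile scaling (limma adjusted p = 0.0291).

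miR-106b-5p, the first hairpin of its cluster, with the same seed and known repression of Cdkn1a, was highest in SH-EVs on this scale and in MH-EVs with spike-in scaling. Its level was 7.58, 8.14 and 8.31 in SH-EVs and 7.24, 7.13 and 7.23 in Thy1-MC-EVs. It was 7.54, 7.61 and 7.56 in MSC-EVs and 7.00, 7.22 and 7.17 in MH-EVs. The SH-EV array of replicate 1 lay within the range of MSC-EVs, and all SH-EV arrays lay above those of Thy1-MC-EVs and MH-EVs. Thy1-MC-EVs were lower than SH-EVs by a log2 fold change of -0.81 (SE 0.17, limma adjusted p = 0.00748). That call was lost with median, 75th percentile and spike-in scaling, on the authors' normalized intensity and with the methods' t-test, with fold changes of -1.46 to -0.70 over all other settings. SH-EVs exceeded MH-EVs by 0.88 (SE 0.17, limma adjusted p = 0.00231), but the sign turned to -1.45 with spike-in scaling and -0.23 on the authors' normalized intensity, where miR-106b-5p lay 0.80 and 1.18 above the median of all probes. The methods' t-test did not make this call. SH-EVs and MSC-EVs differed by 0.44 (limma adjusted p = 0.0717) with the SH-EV array of replicate 1 and by 0.66 (limma adjusted p = 0.00198) without it. MSC-EVs lay above MH-EVs without overlap, by 0.44 (limma adjusted p = 0.0628). This difference passed with median, 75th percentile and cyclic loess scaling, only the 6 arrays, array weights and the methods' t-test. It passed with the opposite sign with spike-in scaling (-2.52) and on the authors' normalized intensity (-1.64).

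miR-93-5p, the middle hairpin of miR-106b/25 with the same seed, had a Pearson correlation over the 12 arrays of 0.78 with miR-17-5p, 0.62 with miR-106b-5p and 0.25 with miR-25-3p, values that share scaling and sources. Its level was 6.85, 6.81 and 6.70 in Thy1-MC-EVs and 7.42, 7.81 and 7.48 in MSC-EVs. It was 7.40, 7.15 and 7.51 in SH-EVs and 6.85, 7.21 and 6.84 in MH-EVs. Thy1-MC-EVs did not overlap with MSC-EVs or SH-EVs, and overlapped with MH-EVs. The log2 fold change in Thy1-MC-EVs was -0.78 against MSC-EVs (SE 0.15, limma adjusted p = 0.00452), lost with median, 75th percentile and spike-in scaling, on the authors' normalized intensity and with the methods' t-test. Against SH-EVs it was -0.57 (SE 0.15, limma adjusted p = 0.0309), and the call held on leaving out SH-EV replicate 2 but not on leaving out any other of the 6 arrays, with limma adjusted p of 0.0693 to 0.113. It was also lost under 7 of 15 other settings, among them every other scale and the methods' t-test. MSC-EVs exceeded MH-EVs by 0.60 (SE 0.15, limma adjusted p = 0.0108), but the sign turned to -2.26 with spike-in scaling and -1.29 on the authors' normalized intensity, and the call was lost with the methods' t-test. SH-EVs and MH-EVs differed by 0.39 (limma adjusted p = 0.0763), and by 0.51 (limma adjusted p = 0.0425) without MH-EV replicate 2.

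miR-18a-5p, the only member with its own seed, lay at 6.18, 6.23 and 6.17 in Thy1-MC-EVs and 6.06, 6.24 and 6.27 in SH-EVs. It was 6.36, 6.61 and 6.23 in MSC-EVs and 6.18, 6.24 and 5.97 in MH-EVs. The groups lay within a narrow band close to the detection limit. When all 727 probes were tested, it passed in none of the 6 comparisons, with limma adjusted p of 0.132 to 1.

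Counted by comparison, the members lay mostly lower in Thy1-MC-EVs. Against MH-EVs, 3 of 8 were lower (miR-19b-3p, miR-92a-3p and miR-19a-3p) and 0 higher in Thy1-MC-EVs, where 15.5% of all probes were lower and 14.5% higher. Of these, miR-19a-3p entered the test through its level in SH-EVs and MH-EVs and passed the limit on 1 Thy1-MC-EV array only, so its call adds no support to the count. The 3 tested members of miR-106b/25 had fold changes of -0.18 to 0.07. Against MSC-EVs, 3 of 8 were lower (miR-19b-3p, miR-17-5p and miR-93-5p) and 0 higher in Thy1-MC-EVs, with 10.6% of all probes lower and 12.9% higher. With only the 6 arrays of those groups in the fit, 5 members passed. The 2 added were miR-92a-3p (-1.09) and miR-20a-5p (-0.79), with limma adjusted p of 0.00572 and 0.0477. In that fit 41 of all 387 probes were higher and 39 lower. With spike-in scaling and on the authors' normalized intensity 0 of 8 members passed, with miR-19b-3p, miR-17-5p and miR-93-5p keeping their sign. Of all 387 probes, 28 were higher and 3 lower with spike-in scaling, and 58 higher and 10 lower on the authors' normalized intensity. These 3 comparisons share the Thy1-MC-EV arrays, so their calls do not stand for separate evidence. SH-EVs against MH-EVs gave 2 higher (miR-25-3p and miR-106b-5p) and 0 lower, with 15.0% of all probes higher and 17.6% lower, a split that became 0 higher and 8 lower with spike-in scaling and 0 higher and 5 lower on the authors' normalized intensity. Of all 387 probes, 0 were higher and 360 lower with spike-in scaling, and 14 higher and 218 lower on the authors' normalized intensity. SH-EVs against MSC-EVs gave 1 higher (miR-25-3p) and 1 lower (miR-17-5p), with 15.5% of all probes higher and 12.1% lower. MSC-EVs against MH-EVs gave 2 higher (miR-17-5p and miR-93-5p) and 1 lower (miR-19b-3p), with 14.7% of all probes higher and 20.7% lower, and 0 higher and 8 lower with spike-in scaling and on the authors' normalized intensity. On these 2 scales 1 and 14 of all 387 probes were higher and 373 and 249 lower. Counts of 1 to 3 among 8 members are too few to be set apart from these shares.

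**Figure D2:**
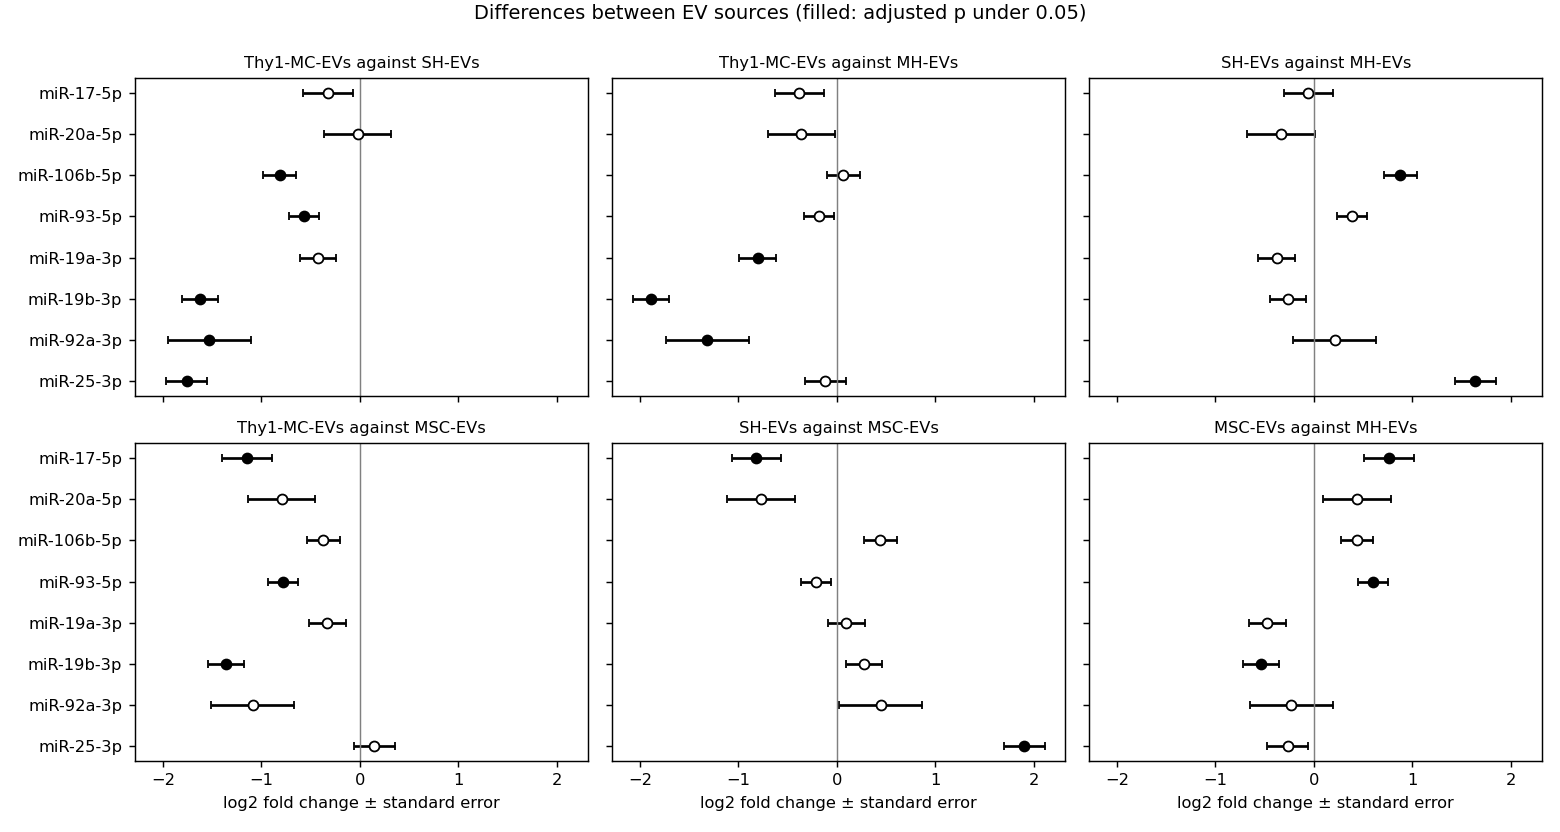
Log2 fold change of the 8 tested members (horizontal axis, first source minus second, with the standard error as bars) in the 6 comparisons, on the common distribution of the 12 arrays. Filled points passed an adjusted p of 0.05. In Thy1-MC-EVs against SH-EVs the points run from -1.76 for miR-25-3p to -0.02 for miR-20a-5p, while the signs of miR-25-3p and miR-106b-5p in SH-EVs against MH-EVs and of miR-17-5p and miR-93-5p in MSC-EVs against MH-EVs turn with spike-in scaling and on the authors' normalized intensity.

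The order of the sources differed between members of 1 cluster. MSC-EVs were highest for miR-17-5p, miR-20a-5p and miR-93-5p, SH-EVs for miR-25-3p, miR-106b-5p and miR-92a-3p, and MH-EVs for miR-19a-3p and miR-19b-3p, whereas with spike-in scaling MH-EVs were highest for all 8. Thy1-MC-EVs were lowest for all of the tested members except miR-106b-5p, lowest in MH-EVs, and miR-25-3p, lowest in MSC-EVs. Of the 24 steps between neighbours in these orders, 3 passed the test: MSC-EVs above MH-EVs for miR-17-5p, MSC-EVs above Thy1-MC-EVs for miR-19b-3p and SH-EVs above MH-EVs for miR-25-3p. The first and last of these are the ones whose sign turns with spike-in scaling. Neighbours were picked by the same means, and no such share was computed over all probes, so 3 of 24 is a description only.

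The balance between the means of the tested members of both clusters varied between sources. The mean of miR-106b/25 minus that of miR-17/92 on the same array was 0.10, 0.55 and 0.58 in SH-EVs and -0.05, 0.24 and 0.26 in Thy1-MC-EVs. It was -0.38, -0.37 and -0.61 in MSC-EVs and -0.76, -0.70 and -0.69 in MH-EVs. The Thy1-MC-EV and SH-EV arrays lay above all of the MSC-EV and MH-EV arrays, with SH-EV replicate 1 inside the range of Thy1-MC-EVs. The value is a description and was not tested.

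Within miR-17/92, miR-17-5p and miR-20a-5p kept together and followed the other tested members less closely. Over the 12 arrays the levels of miR-17-5p and miR-20a-5p had a Pearson correlation of 0.90, and 0.95 after the group means were removed. Both members differ from each other at 2 bases only, and the arrays share source and scaling. miR-17-5p had a correlation of 0.30 with miR-19a-3p, 0.38 with miR-19b-3p and 0.09 with miR-92a-3p. That of miR-92a-3p was 0.59 with miR-19a-3p and 0.76 with miR-19b-3p. The difference within an array, miR-92a-3p minus miR-17-5p, was 1.93, 2.00 and 1.75 in SH-EVs and 0.68, 0.37 and 1.01 in Thy1-MC-EVs. It was 0.85, 0.67 and 0.37 in MSC-EVs and 0.80, 0.63 and 3.45 in MH-EVs. The MH-EV array of replicate 3 was high in miR-92a-3p and low in both miR-17-5p and miR-20a-5p, and without it SH-EVs stood above the other 8 arrays. Within miR-106b/25, miR-25-3p minus miR-106b-5p was 2.62, 1.55 and 1.57 in SH-EVs and 0.78, 1.16 and 0.96 in Thy1-MC-EVs. It was 0.03, 0.62 and 0.70 in MSC-EVs and 1.11, 0.98 and 1.36 in MH-EVs, so that the SH-EV arrays lay above the 9 others. Before the arrays were brought to a common distribution, SH-EVs (2.07, 1.48 and 1.69) overlapped with MH-EVs (1.47, 1.29 and 1.96), so this separation depends on the scaling.

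**Figure D3:**
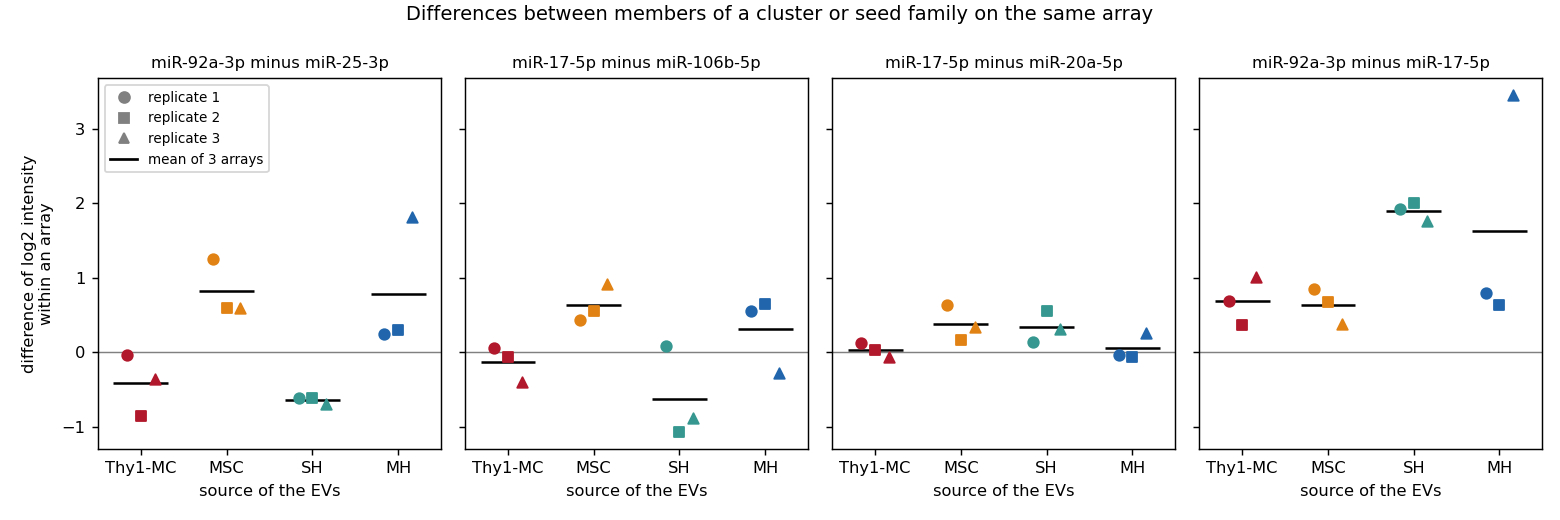
Difference of normalized log2 intensity between pairs of members on the same array (vertical axis), for each EV source (horizontal axis). Points are arrays with the replicate shown by shape, and lines are means of 3 arrays. miR-92a-3p minus miR-25-3p lay below 0 on all Thy1-MC-EV and SH-EV arrays and above 0 on all MSC-EV and MH-EV arrays, and MH-EV replicate 3 stood apart at 3.45 for miR-92a-3p minus miR-17-5p.

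Choice of scale mattered most for comparisons with MH-EVs. With spike-in scaling all 8 members passed as lower than MH-EVs in each of Thy1-MC-EVs, SH-EVs and MSC-EVs, and on the authors' normalized intensity 8, 5 and 8 did. Most probes did so too: of 387 tested, 363, 360 and 373 were lower with spike-in scaling, in the same order. On the authors' normalized intensity 217, 218 and 249 were lower, so these counts are not particular to the members. Fold changes of miR-19b-3p, miR-92a-3p and miR-19a-3p in Thy1-MC-EVs relative to MH-EVs were below 0 under all 6 scales. Over all probes, the share of calls that were higher in the first source was 48.2% for Thy1-MC-EVs against SH-EVs and 36.4% to 80.0% under the 5 other scales. It was 48.3% (0.275% to 75.3%) for Thy1-MC-EVs against MH-EVs, 46.0% (0% to 86.6%) for SH-EVs against MH-EVs and 54.9% (26.7% to 90.3%) for Thy1-MC-EVs against MSC-EVs. It was 56.1% (34.4% to 83.7%) for SH-EVs against MSC-EVs and 41.6% (0.267% to 90.9%) for MSC-EVs against MH-EVs, with the range over the other scales in brackets. For SH-EVs against MH-EVs, miR-25-3p ran from 1.94 to -1.27 over the other settings and miR-106b-5p from 1.71 to -1.45.

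**Figure D4:**
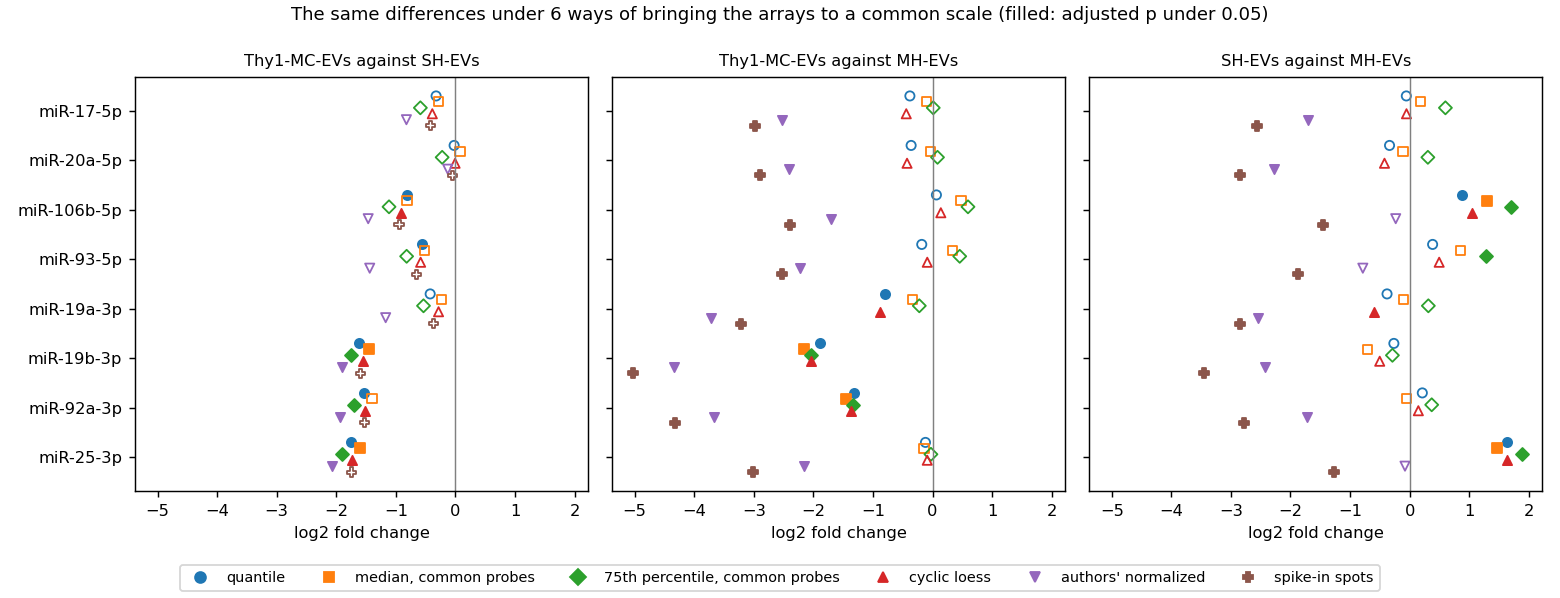
Log2 fold change of the 8 tested members (horizontal axis) in 3 comparisons under 6 ways of bringing the arrays to a common scale, shown by symbol. Filled symbols passed an adjusted p of 0.05. In Thy1-MC-EVs against SH-EVs all symbols of the 5 called members lie below 0, whereas in the comparisons with MH-EVs spike-in scaling and the authors' normalized intensity lie far to the left, and miR-25-3p in SH-EVs against MH-EVs crosses 0.

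Of the partner arms cut from the same hairpins, 12 were on the array and 6 were tested. miR-92a-2-5p, from the X copy of miR-92a, exceeded its SH-EV level in Thy1-MC-EVs by 1.07 (SE 0.32, limma adjusted p = 0.0465) with the same sign under all 6 scales, the comparison in which miR-92a-3p was lower. miR-17-1-3p was higher than in MH-EVs in Thy1-MC-EVs (0.69, limma adjusted p = 0.00192), SH-EVs (0.80, limma adjusted p = 0.000718) and MSC-EVs (0.54, limma adjusted p = 0.00619), each with the sign turned by spike-in scaling. Its raw signal in MH-EVs was 85.4, 72.5 and 109.3, with detection limits of 80.4, 64.7 and 84.9, and it was detected on 2 of 3 MSC-EV arrays. The sizes of these differences thus rest on a level close to the limit. For Thy1-MC-EVs against MH-EVs, miR-92a-2-5p was higher by 1.19 (limma adjusted p = 0.0151), with the sign turned by spike-in scaling and on the authors' normalized intensity. For SH-EVs against MH-EVs, miR-106b-3p was higher by 0.46 (limma adjusted p = 0.0231), with the sign turned by spike-in scaling, the same comparison in which miR-106b-5p was higher. The raw signal of miR-106b-3p in MH-EVs was 94.4, 65.9 and 89.5, also close to the limit. The other 3 tested arms, miR-18a-3p, miR-93-3p and miR-25-5p, passed in no comparison.

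Among relatives outside both clusters, 8 of 10 names were on the array and 4 were tested. miR-20b-5p, with the AAAGUGC seed, was lower in Thy1-MC-EVs than in MSC-EVs by 0.90 (SE 0.23, limma adjusted p = 0.0161), the comparison in which miR-17-5p and miR-93-5p were lower. It differs from miR-17-5p by U10C and C12U. miR-92b-3p, with the AUUGCAC seed, passed in no comparison, and its log2 fold change in Thy1-MC-EVs against SH-EVs was -1.07 (SE 0.36). miR-363-3p, the other member of that family on chromosome X, was detected on none of the 12 arrays. miR-92b-5p was higher than in MH-EVs by 1.25 in Thy1-MC-EVs and 1.25 in SH-EVs (limma adjusted p = 0.0255 and 0.0237), with the sign turned by spike-in scaling and on the authors' normalized intensity. Its values in Thy1-MC-EVs and SH-EVs were equal, because it took the same ranks there and the common distribution gives equal ranks equal values. miR-363-5p was detected on all 3 MH-EV arrays, 1 Thy1-MC-EV array, 1 SH-EV array and 0 MSC-EV arrays, so that it was tested only through MH-EVs and no fold is given.

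Outside these lists, the miRNAs whose levels followed the mean of miR-17/92 most closely over the 12 arrays were miR-383-5p (Pearson r = 0.80), miR-30d-5p (0.77) and miR-350 (0.70). For the mean of miR-106b/25 they were miR-151-3p (0.89), miR-30c-2-3p (0.88) and miR-200a-3p (0.88). They were picked from 387 probes, and the arrays share source and scaling. Group means of miR-383-5p were 5.90 to 6.18, no higher than those of miR-18a-5p, which lay close to the detection limit. Lowest group means were also near it for miR-350 (6.14 to 6.85), miR-30c-2-3p (6.28 to 6.70) and miR-200a-3p (6.14 to 6.76). miR-200a-3p was detected on no MSC-EV array. Correlations of these miRNAs may thus rest partly on background. Group means were 9.12 to 10.70 for miR-30d-5p and 6.52 to 7.84 for miR-151-3p.

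Markers of other cells moved with some of these differences, and their part in them was not tested. The erythroid list (3 of 4 names on the array, miR-451-5p at the front) summed to 417 to 713 in the authors' normalized intensity on Thy1-MC-EV arrays and 557 to 766 on MSC-EV arrays, with 2 of 3 detected. It was 0 on SH-EV arrays and 0 to 2.9 on MH-EV arrays. The epithelial and biliary list (5 of 5 on the array) summed to 12.8 to 32.7 in SH-EVs with 1 to 4 detected, 8.9 to 24.4 in MH-EVs with 2 to 4, 0 to 3.5 in Thy1-MC-EVs with at most 1 and 0 in MSC-EVs. The hepatocyte list (4 of 4 on the array, miR-122-5p at the front) summed to 17007 to 32900 in MH-EVs with all 4 detected. It was 113 to 298 in SH-EVs with all 4 detected, 68.3 to 1089 in Thy1-MC-EVs with 1 to 4 and 23.6 to 97.3 in MSC-EVs with 1. The label of MH-EVs thus had its defining markers, whereas SH-EVs carried them at a small part of that level. Among Thy1-MC-EVs replicate 3 stood apart, with a sum of 1089 against 68.3 and 154 on the others. The mesenchymal list (5 of 5 on the array) summed to 308 to 1486 in Thy1-MC-EVs, 234 to 1015 in MSC-EVs, 144 to 257 in SH-EVs and 591 to 1375 in MH-EVs, and miR-199a-3p was detected on no SH-EV array. The leukocyte and platelet list summed to 11.0 to 19.6 in SH-EVs, 29.1 to 53.7 in Thy1-MC-EVs, 66.4 to 80.6 in MSC-EVs and 62.2 to 192 in MH-EVs. The endothelial list was 0 in SH-EVs and 20.2 to 31.8 in Thy1-MC-EVs, 18.1 to 27.3 in MSC-EVs and 37.0 to 137 in MH-EVs. All these sums are on the authors' scale, where most probes read higher in MH-EVs. Its median log2 difference from MH-EVs over all tested probes was -1.40 for Thy1-MC-EVs, -1.42 for SH-EVs and -1.92 for MSC-EVs. The mesenchymal, leukocyte and endothelial sums thus do not show that MH-EVs ranked above the other sources in these markers.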

How the data were processed

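Each array was a 3D-Gene chip designed on miRBase release 20. For every probe the authors deposited raw, background-subtracted and normalized intensity, the last with detected probes centred on a median of 25. No source used here names the scanner or its software. The raw intensity was used. It was corrected against the mean of the blank spots (5% left out at either end) with normexp (offset 50), brought to a common distribution by quantile normalization and taken to log2 with limma 3.58.1 in R 4.3.3. The 2 probe values with a flag were left out. Probes detected on all 3 arrays of any source, 387 of 727, were fitted with 1 mean per group over all 12 arrays (lmFit, eBayes), and p-values were adjusted by Benjamini-Hochberg over these probes. All 6 comparisons of the 4 sources were made. The number of arrays, 3 per group, limits the precision: the median SE of a log2 fold change was 0.19. Every member was named, whatever its values, and of other miRNAs the listed relatives that passed and the 3 most correlated with each cluster mean. The members and lists were chosen with earlier results of these data known. The fit was tested on simulated data.

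Replicate numbers come from the labels, which do not explain them. Deviations from the group means correlated between same-numbered Thy1-MC-EV and MH-EV arrays (0.31, 0.20 and 0.32), so the number was also fitted as a block, which changed no call between those sources. The other comparisons each held a correlation under 0.1.

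Alternatives were other background corrections, 5 other scales (median, 75th percentile, cyclic loess, spike-in spots and the authors' normalized intensity, where probes without a value took the array's lowest), other filters, array weights, an intensity trend, fits on 2 groups only, the methods' t-test and leaving out each array. A filter on the 95th percentile of the spots without a probe was added after seeing the data.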

Additional observations from a re-analysis of the deposited data

How the results depend on the processing

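Counts of members passing in Thy1-MC-EVs against SH-EVs (5 on the reported scale), Thy1-MC-EVs against MH-EVs (3), SH-EVs against MH-EVs (2), Thy1-MC-EVs against MSC-EVs (3), SH-EVs against MSC-EVs (2) and MSC-EVs against MH-EVs (3) moved mostly with the scale. In that order, spike-in scaling gave 0, 8, 8, 0, 1 and 8, and the authors' normalized intensity 3, 8, 5, 0, 2 and 8. Over all 387 probes, spike-in scaling called 4, 1, 0, 28, 41 and 1 higher. It called 1, 363, 360, 3, 8 and 373 lower. The authors' normalized intensity called 18, 9, 14, 58, 83 and 14 higher and 21, 217, 218, 10, 29 and 249 lower. For Thy1-MC-EVs against SH-EVs, plain subtraction gave 3, median scaling 2, 75th percentile scaling 3 and the methods' t-test 2. Over all probes these settings gave 13, 8, 14 and 7 lower and 19, 16, 8 and 10 higher. SH-EVs against MSC-EVs gave 1 with plain subtraction, median scaling, 75th percentile scaling, cyclic loess, all probes or the methods' t-test, and 4 with array weights. Over the probes tested, the first 6 of these settings gave 65, 22, 20, 27, 55 and 26 higher and 45, 42, 30, 43, 47 and 30 lower. Array weights gave 81 higher and 55 lower, from 60 and 47 on the reported scale, so calls rose over all probes too. MSC-EVs against MH-EVs gave 1 with plain subtraction or all probes, miR-93-5p in both. With the methods' t-test all 3 calls of the reported scale were lost, and the 1 that passed was another member, miR-106b-5p. Over the probes tested, these 3 settings gave 54, 60 and 34 higher and 95, 75 and 55 lower. SH-EVs against MH-EVs gave 4 with array weights and 1 with the methods' t-test, and Thy1-MC-EVs against MSC-EVs 1 with 75th percentile scaling and 5 with only its 6 arrays. Over all probes, array weights gave 88 higher and 117 lower in SH-EVs against MH-EVs, from 58 and 68, and the t-test 40 and 40. In Thy1-MC-EVs against MSC-EVs, 75th percentile scaling gave 8 higher and 22 lower, and the 6 arrays 41 and 39. Leaving out 1 array gave 3 to 4, 2 to 4, 2 to 3, 3 to 3, 1 to 3 and 1 to 2, in the order first given. Counts over all probes are not given here for these fits, so the ranges are a description only. With the replicate block the counts were 5, 3, 2, 3, 2 and 2, and the block ended 1 call, miR-19b-3p in MSC-EVs against MH-EVs (limma adjusted p = 0.0565). Over all probes the block gave 30, 58, 60, 60, 63 and 58 higher and 40, 67, 72, 43, 50 and 86 lower. Of the 18 member calls, all stayed without background correction and with the added filter, and 5 stayed with their sign under spike-in scaling.

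Among fold changes that passed on the reported or the other scale, signs turned only in comparisons with MH-EVs. With spike-in scaling, where the median of all probes lay at -2.23, -2.24 and -2.61 for Thy1-MC-EVs, SH-EVs and MSC-EVs, they were -2.39 for miR-106b-5p in Thy1-MC-EVs; -1.27 for miR-25-3p, -2.79 for miR-92a-3p, -1.88 for miR-93-5p and -1.45 for miR-106b-5p in SH-EVs; and -2.64 for miR-20a-5p, -2.48 for miR-17-5p, -2.26 for miR-93-5p and -2.52 for miR-106b-5p in MSC-EVs. On the authors' normalized intensity, with medians of -1.40, -1.42 and -1.92, they were -1.70 for miR-106b-5p in Thy1-MC-EVs; -0.078 for miR-25-3p, -1.72 for miR-92a-3p and -0.23 for miR-106b-5p in SH-EVs; and -1.66 for miR-20a-5p, -1.33 for miR-17-5p, -1.29 for miR-93-5p and -1.64 for miR-106b-5p in MSC-EVs. The cause was not tested. Levels of miR-18a-5p, miR-19a-3p and miR-93-5p near the spots without a probe limit what their signal can show.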
